A study of Mus musculus with 10 samples.

Results

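Growth hormone (Gh), prolactin (Prl), pro-opiomelanocortin (Pomc), the shared glycoprotein hormone alpha subunit (Cga) and the beta subunits of luteinising hormone (Lhb) and thyroid-stimulating hormone (Tshb) are 6 hormone genes of the pituitary gland. They were taken by symbol out of 32531 gene rows of a mouse striatum study and were chosen by their counts, which earlier work on these data had found high in the total RNA and in 1 pull-down, so their levels across the libraries are given as a description. The study sequenced ribosome-bound RNA from the whole striatum of adult Drd1-TRAP mice of line CP73, in which a ribosomal protein L10a fused to EGFP is made in cells that use the Drd1 promoter, on a background of at least 9 generations of C57BL/6. Mice self-administered saline or cocaine or served as yoked controls, with 3 pull-downs from each of these groups, and 1 input library held total RNA. All 10 libraries came from mice that carried the transgene. What the yoked mice received, the sex of the mice, and whether a library held 1 animal or several are not given in the labels, so tests measure the spread between these libraries, which may be technical. Libraries are named by group and replicate number (saline 1, for example), and levels are given as counts per 1000000 gene counts (CPM) of each library.

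The anterior pituitary makes its hormones in separate cell types, in which hormone messenger RNA is among the most abundant transcripts. Somatotrophs make growth hormone, lactotrophs prolactin and thyrotrophs thyroid-stimulating hormone, and these 3 cell types depend on the transcription factor POU1F1. Gonadotrophs make luteinising and follicle-stimulating hormone, and corticotrophs and the melanotrophs of the intermediate lobe make pro-opiomelanocortin under TBX19. The gonadotropins and thyroid-stimulating hormone pair the alpha subunit from Cga with their own beta subunit. In the brain, Pomc neurons lie mainly in the arcuate nucleus of the hypothalamus, which is outside the striatum. The pituitary is joined to the base of the brain outside the striatum.

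The genes lie on separate chromosomes of GRCm38.p6, the RefSeq assembly used here for positions. Gh spans chromosome 11, 106300261 to 106303703, and Prl chromosome 13, 27057570 to 27065204. Pomc spans chromosome 12, 3954945 to 3960643, Cga chromosome 4, 34893779 to 34907374, Lhb chromosome 7, 45417608 to 45421855, and Tshb chromosome 3, 102777398 to 102789082. RefSeq's promoter table holds 5 of the 6 genes. Prl, Pomc and Cga were highest in the input and next in saline 1, as were Lhb and Tshb. The 250 bases before the start of Prl, Pomc and Cga, on 3 chromosomes, are shown as examples. Each is written 5′ to 3′ along the gene, and capitals mark matches on either strand to the motif TATAAA, known as the TATA box, or to the motif TATNCAT, the core of POU1F1 sites, where N is any base. Another motif, CAAGGTCA, searched on both strands, which the gonadotroph and adrenal factor NR5A1 binds, had no match in these 3 windows.
Prl (chr13:27057320-27057569, + strand): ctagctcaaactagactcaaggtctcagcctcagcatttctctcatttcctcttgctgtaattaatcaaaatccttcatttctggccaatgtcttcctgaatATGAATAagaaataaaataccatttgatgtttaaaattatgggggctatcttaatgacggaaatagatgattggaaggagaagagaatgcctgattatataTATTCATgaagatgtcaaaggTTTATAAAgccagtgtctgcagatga
Pomc (chr12:3954695-3954944, + strand): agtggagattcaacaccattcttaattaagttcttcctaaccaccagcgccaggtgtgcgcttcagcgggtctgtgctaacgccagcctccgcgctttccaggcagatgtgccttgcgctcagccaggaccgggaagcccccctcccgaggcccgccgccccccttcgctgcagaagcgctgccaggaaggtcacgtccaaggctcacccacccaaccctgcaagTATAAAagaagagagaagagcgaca
Cga (chr4:34893529-34893778, + strand): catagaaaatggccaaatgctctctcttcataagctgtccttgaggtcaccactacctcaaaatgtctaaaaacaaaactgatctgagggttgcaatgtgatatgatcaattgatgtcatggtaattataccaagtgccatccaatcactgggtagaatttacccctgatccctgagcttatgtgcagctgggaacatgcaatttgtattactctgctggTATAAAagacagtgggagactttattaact

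A TATA match began 24 bases before the start in Prl, 25 in Pomc, 30 in Cga, 31 in Lhb and 27 in Tshb, so it was present in all 5 windows against 12.4% of 32851 windows of that length in the table. In Prl it overlaps a match on the other strand. The windows of Lhb (chr7:45420696-45420945, + strand) and Tshb (chr3:102782715-102782964, - strand) lie inside the spans given above. Their start is thus one within the gene and not the end of its span. The POU1F1 core was matched at 47 and 148 bases before the start of Prl and in 0 of the other 4 windows, against 7.92% of all windows. Lhb held a single NR5A1 match, 129 bases before its start, against 1.33% of all windows. A match describes these letters and does not show that a factor was bound.

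The input held 40519976 gene counts and the pull-downs 12528806 to 45242175. A floor of 3 counts stood at 0.0740 CPM in the input and 0.0663 to 0.239 CPM in the pull-downs. Intervals below are exact 95% Poisson or binomial intervals and, like the floor, cover counting error only. The pull-downs held D1 neuron RNA: 8 of 8 D1 markers were above the input in all 9, with Drd1 at 691 ± 106 CPM (SD, n = 9) against 331 in the input. All 8 markers of D2 neurons, of oligodendrocytes and of microglia were below it in all 9, as were 7 of 8 astrocyte and 7 of 8 endothelial and mural markers. The labels name sequencing lane 3 for saline, 1 for cocaine, 2 for yoked and 5 for the input library, and as each group had its own lane, group and lane cannot be told apart. All libraries numbered 1 and the input carried the same index, the short tag that tells libraries of a lane apart, and those numbered 2 and 3 each carried another.

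In the input the 6 genes together took 108765 counts, 0.268% of the library. Gh was at 2356 CPM (interval 2341 to 2371, 95472 counts), the place 15 by count among all gene rows. Prl was at 174 CPM (170 to 179), Pomc at 93.9 (90.9 to 96.9) and Cga at 51.3. Tshb was at 5.33 CPM (216 counts) and Lhb at 3.16 (128 counts). These counts are not scaled to transcript length, so they order libraries for 1 gene and not genes against each other. There is 1 input, which gives no error between animals.

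Among the pull-downs, saline 1 stood apart from the other 8 for every one of the 6 genes. It held 11054 counts of them, or 389 CPM, where the other 8 held 0.530 to 6.39 CPM. At a threshold of at least 4-fold above each other pull-down, 5 of the 6 genes passed in saline 1, against 0.113% of the 14120 genes with at least 10 counts there, a share given as a description since the genes were chosen with these levels known. Lhb was the exception, at 2.78 times the next library on 12 counts. Whether more cells or more RNA per cell lay behind a level cannot be told apart in such bulk samples.

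Growth hormone drives body growth through the liver and bone. Gh was at 340 CPM in saline 1 (interval 333 to 346, 9648 counts), and at 1.12 and 1.11 CPM in saline 2 and 3, which rest on 14 and 26 counts. Cocaine 1 was at 3.28 CPM (108 counts), while cocaine 2 and cocaine 3 had 1 count each. Yoked 1 was at 0.259 CPM (10 counts), and yoked 2 and 3 had 0 counts. Thus 98.4% of the Gh counts of all pull-downs lay in 1 library, which was 103-fold above the next.

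Prolactin, the hormone of lactation, was at 23.6 CPM in saline 1 (21.8 to 25.4, 670 counts). The other 8 pull-downs held 3 Prl counts in all, 2 in saline 3 and 1 in cocaine 1. Saline 1 was 2058-fold above these 8 pooled, at a pooled level of 0.0115 CPM that rests on those 3 counts. The placental relatives of prolactin, 25 further rows of the Prl family, had at most 1 count in any library, and 22 had 0 in all 10.

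Pomc, the precursor of ACTH, melanocyte-stimulating hormone and beta-endorphin, differed from the other 5 in being above the floor in every pull-down. It was at 17.8 CPM in saline 1 (507 counts), 1.28 in saline 2 and 2.01 in saline 3. Cocaine 1, 2 and 3 were at 2.83, 1.88 and 1.15 CPM, and yoked 1, 2 and 3 at 1.61, 0.895 and 0.420. Outside saline 1 it was at 1.51 ± 0.745 CPM (SD, n = 8), on 16 to 93 counts a library, and the 3 groups overlapped. Within both the cocaine and the yoked group the library numbered 1 was the highest.

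Of the glycoprotein hormone genes, Cga was at 6.27 CPM in saline 1 on 178 counts. Its other 8 libraries held 6 counts in all, with 3 in cocaine 1 and 2 in saline 2. Tshb was at 1.37 CPM in saline 1 (39 counts), with 11 counts in the other 8, of which yoked 3 had 5 and yoked 2 had 4. Lhb had 12 counts in saline 1, 5 in cocaine 1 and at most 2 in any other pull-down. Outside saline 1 the counts of Prl, Cga, Lhb and Tshb were at or under the floor, apart from Lhb in cocaine 1 and Tshb in yoked 2 and yoked 3.

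In the mix of the 6 genes, the shares of Gh and Prl were much the same in saline 1 and in the input, while those of Pomc and Tshb differed. Gh made up 87.3% of the counts of the 6 genes in saline 1 (exact binomial interval 86.6% to 87.9%) and 87.8% in the input (87.6% to 88.0%). Prl made up 6.06% (5.62% to 6.52%) and 6.50% (6.35% to 6.65%). Pomc took a larger share in saline 1, 4.59% (4.20% to 4.99%) against 3.50% (3.39% to 3.61%), and Cga a slightly smaller one, 1.61% against 1.91%. Tshb also took a larger share there, 0.353% (0.251% to 0.482%) against 0.199% (0.173% to 0.227%). Gh counts were 14.4 times those of Prl in saline 1 and 13.5 times in the input. In the other 8 pull-downs pooled the order was turned, with Pomc at 66.4% and Gh at 28.3% of 566 counts.

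The ratio of saline 1 to the input ran from 0.122 to 0.258 over the 6 genes. The labels do not say whether the input came from the same tissue as saline 1 or any other pull-down, so a loss in the pull-down and a difference of tissue cannot be told apart in it. The ratio was 0.144 for Gh (0.141 to 0.147), 0.135 for Prl (0.125 to 0.146), 0.122 for Cga (0.104 to 0.142) and 0.134 for Lhb (0.0673 to 0.242). It was higher for Pomc, at 0.190 (0.173 to 0.209), and for Tshb, at 0.258 (0.178 to 0.364), whose intervals did not reach that of Gh. The summed 6 genes had a ratio of 0.145.

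**Figure D1:**
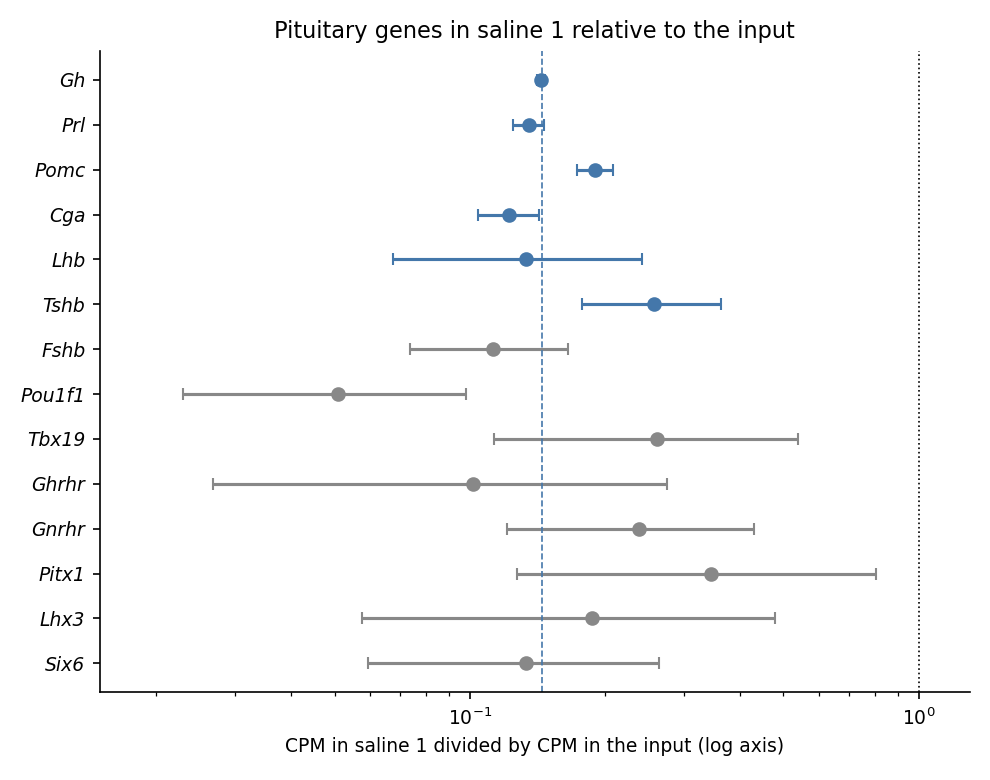
CPM in saline 1 divided by CPM in the input, on a log axis, for the 6 genes (blue) and other pituitary genes (grey), with exact 95% intervals for counting error. The dashed line is the ratio of the summed 6 genes, 0.145, and the dotted line is a ratio of 1; the intervals of Cga and Pou1f1 lie below the dashed line, those of Pomc and Tshb above it, and the others include it.

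Some other genes that define pituitary cells were in the same libraries, at low counts. Fshb, the beta subunit of follicle-stimulating hormone, had 355 counts in the input, 28 in saline 1 and 0 in each of the other 8, with a ratio of 0.113 (0.0737 to 0.165). Pou1f1 had 252 counts in the input, 9 in saline 1 and 0 in the rest, a ratio of 0.0509 (0.0230 to 0.0983). Lhx3, an early pituitary homeobox gene, had 38, 5 and 0. Tbx19 had 49 and 9 counts, and the receptor of gonadotropin-releasing hormone, Gnrhr, 78 and 13, with at most 2 counts of either in another pull-down. Six6 had 96 and 9, with at most 1 elsewhere. Pitx1 had 29 and 7, with 9 counts in the other 8, of which yoked 1 had 4. Ghrhr, the receptor of growth hormone-releasing hormone, had 56 and 4, and its level in saline 1 (0.141 CPM) was below that in saline 2 (0.160 CPM on 2 counts). Of 12 pituitary transcription factors, 5 were above the other 8 pull-downs in saline 1 and 0 were below them, and Hesx1, Lhx4 and Gata2 were at 0 there. Neurod4 was at 0.493 CPM in saline 1, within the 0.233 to 1.12 of the others. Of 8 receptors for releasing hormones, 3 were above the other 8 pull-downs in saline 1 and 1 was below them. The latter was Sstr2, at 2.50 CPM in saline 1, 3.59 to 6.03 in the others and 1.43 in the input. Pax7, a factor of melanotrophs, had 43 counts in the input and 1 in saline 1.

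Genes of hormone processing that neurons also use did not follow this pattern. Of 10 such genes 1, the granule protein gene Chga, was higher in saline 1 than in the other 8, and 1 was above all pull-downs in the input. Cpe, carboxypeptidase E, was at 285 CPM in saline 1, 230 to 414 in the other 8 and 295 in the input. Pcsk2, which cleaves prohormones, was at 246, 173 to 268 and 189 CPM. Scg5 was at 84.9 in saline 1 against 34.4 in the input, and Scg3 at 30.4 against 76.0.

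Markers of the hypothalamus, another home of Pomc, were also measured: 12 of 16 peptides and 4 of 8 transcription factors reached the floor in the input. In saline 1, 7 and 2 did, and in the other 8 pull-downs 5 to 9 and 2 to 5. Summed over 16 hypothalamic peptides, saline 1 was at 21.5 CPM and the other 8 at 21.8 to 34.3, against 108 in the input, of which Sst and Npy, also made by striatal interneurons, were 70.2 and 33.2. Agrp, made by the arcuate neighbours of Pomc neurons, had 21 counts in the input, 0 in saline 1 and 0 to 13 elsewhere. Avp had 41 and 10 counts, Gnrh1 22 and 0, and Ghrh 3 and 0. Hcrt, Pmch, Kiss1 and Npvf were at 0 in the input as well as in saline 1. Nkx2-1, a factor of hypothalamus and interneurons, was at 6.24 CPM in the input, 0.704 in saline 1 and 0.187 to 2.08 in the other pull-downs. Tbx3, a factor of arcuate neurons, was at 2.54 CPM in the input (103 counts), 0.282 in saline 1 and 0 to 0.428 in the others.

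Receptors for these hormones were measured in the same RNA. Of 10 receptor genes, 6 were above all pull-downs in the input and 1 below them, and 1, Mc2r on a single count, was higher in saline 1 than in the other 8. Ghr, the growth hormone receptor, averaged 7.99 ± 1.78 CPM over the pull-downs (SD, n = 9) and was at 15.1 in the input, with saline 1 at 7.36. Prlr, the prolactin receptor, was at 0.317 CPM in saline 1 and 3.06 in the input, and was highest among pull-downs at 2.14 in saline 3. Mc3r, a melanocortin receptor named after its values were seen, was the one below the pull-downs in the input, at 0.444 against 1.86 ± 0.541 CPM. Among response genes, Socs2, induced by growth hormone, was at 18.5 CPM in saline 1 and 13.0 to 24.0 in the other 8. Igf1 was at 0.422 CPM in saline 1 and 0.209 to 1.52 in the others, against 5.65 in the input. Of 10 such response genes, Igfbp3, Igfals and Socs1 were higher in saline 1 than in each other pull-down, at 5.84 CPM against at most 5.78 for Igfbp3 and on 1 and 5 counts for the others, and these too were named after their values were seen.

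None of the genes next to the 6 on either side was higher in saline 1 than in all other pull-downs. Tcam1 and Cd79b, on either side of Gh, had 3 and 1 counts in the input and 0 in saline 1. Ruvbl2, which begins 40 bases past the end of Lhb, was at 31.1 CPM in saline 1, 21.0 to 36.1 in the other pull-downs and 24.9 in the input. Efr3b, 1910 bases from Pomc, was at 180 CPM in saline 1 and 133 to 183 in the others. Among the 22961 of 32531 rows that matched RefSeq by symbol, none overlapped any of the 6 genes, and the other rows could not be placed.

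Markers of other cells were set beside the hormones. Summed over marker lists, saline 1 was at 0.140 of the input for astrocytes, 0.153 for oligodendrocytes, 0.154 for microglia and 0.172 for D2 neurons, beside 0.145 for the pituitary hormones. In the other 8 pull-downs these lists were at 0.0860 to 0.431, 0.0738 to 0.381, 0.0780 to 0.360 and 0.106 to 0.339 of the input, whereas the hormones were at 1.98e-04 to 0.00238. Other lists lay farther from the hormones in saline 1, with hypothalamic peptides at 0.199 of the input and the choroid plexus list at 0.364. Blood genes were at 0.0465 there, below the 0.0734 to 0.274 of the other pull-downs. D1 markers in saline 1 were at 2.60 times the input, within the 2.01 to 2.98 of the others. Each sum follows its most abundant genes, and single genes varied around it. In the input Gh made up 87.8% of the hormone counts, and Slc1a2 was 1769.5 of the 2572.5 CPM of astrocyte markers. Slc1a2 was at 163 CPM in saline 1, while the astrocyte gene Aldoc was at 67.1 in saline 1 against 203.6 in the input. Saline 1 was above the other 8 in 0 of 8 markers of each glial list and of the choroid plexus list. The part of carried-over RNA in the hormone levels was not tested.

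**Figure D2:**
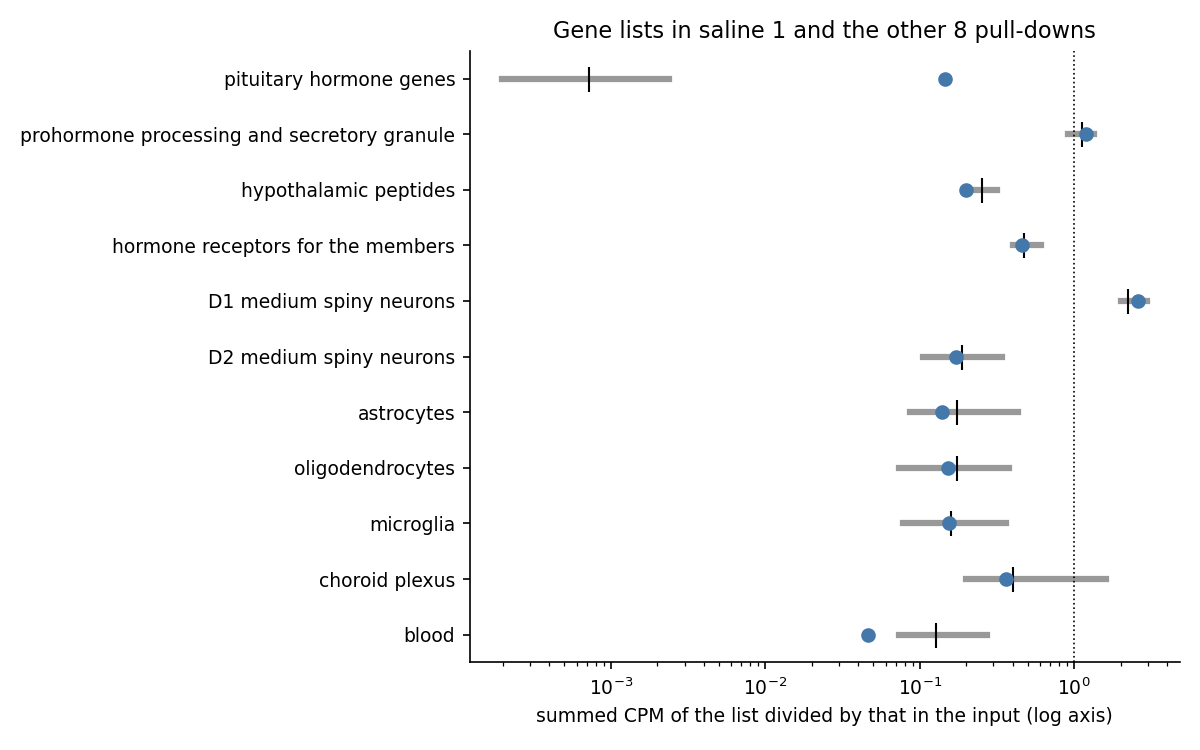
Summed CPM of gene lists divided by that of the input, on a log axis. Blue points are saline 1, grey bars the range of the other 8 pull-downs and black ticks their median; in saline 1 the hormone genes lie at 0.145, among the D2 and glial lists, and in the other 8 they lie below every other list drawn.

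Set against all genes, Gh, Prl, Cga and Pomc were among the rows with the lowest ratio of pull-downs to input, a contrast that also chose the genes. Of the 6 genes, 5 were at least 4-fold below the input in each of the 9 pull-downs, against 6.47% of 14224 genes at 1 CPM or more in the input, from which nothing is read here. Tshb was the exception, 3.88-fold lower in saline 1. On the scale log2(CPM + 0.5), the mean of the pull-downs stood against the input at -5.92 for Gh, -5.80 for Prl, -5.40 for Cga, -4.62 for Pomc, -3.09 for Tshb and -2.66 for Lhb, where the median of 8513 genes at 10 CPM or more was 0.04. Gh took place 10 from the bottom of these 8513 genes, behind the nuclear RNA Malat1 and 8 rows named by clone identifiers. Without saline 1 its value was -10.90 and its place 1, and Prl moved to -8.41 and from place 12 to place 6.

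The few Gh counts outside saline 1 were unevenly spread over lanes and indexes. Saline 2 and saline 3, which shared the lane of saline 1, had 14 and 26 Gh counts. Cocaine 1 and yoked 1, which shared its index, had 108 and 10. The 4 pull-downs that shared neither had 1, 1, 0 and 0, at depths of 32169018 to 45242175 gene counts. Pomc had 16 and 47 counts in the first pair, 93 and 62 in the second and 19 to 63 in those 4, so that its counts overlapped between these sets. Beside its 108 Gh counts, cocaine 1 had 1 count of Prl and 3 of Cga, which put it at 0.00139 of the input for Gh (0.00114 to 0.00168), 1.74e-04 for Prl (4.41e-06 to 9.72e-04) and 0.00178 for Cga (3.66e-04 to 0.00520). Saline 3 had 13 Gh counts per Prl count, on 26 and 2 counts. The index of saline 1 was also that of the input, which ran on lane 5. The part of lane and index in these counts was not tested.

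**Figure D3:**
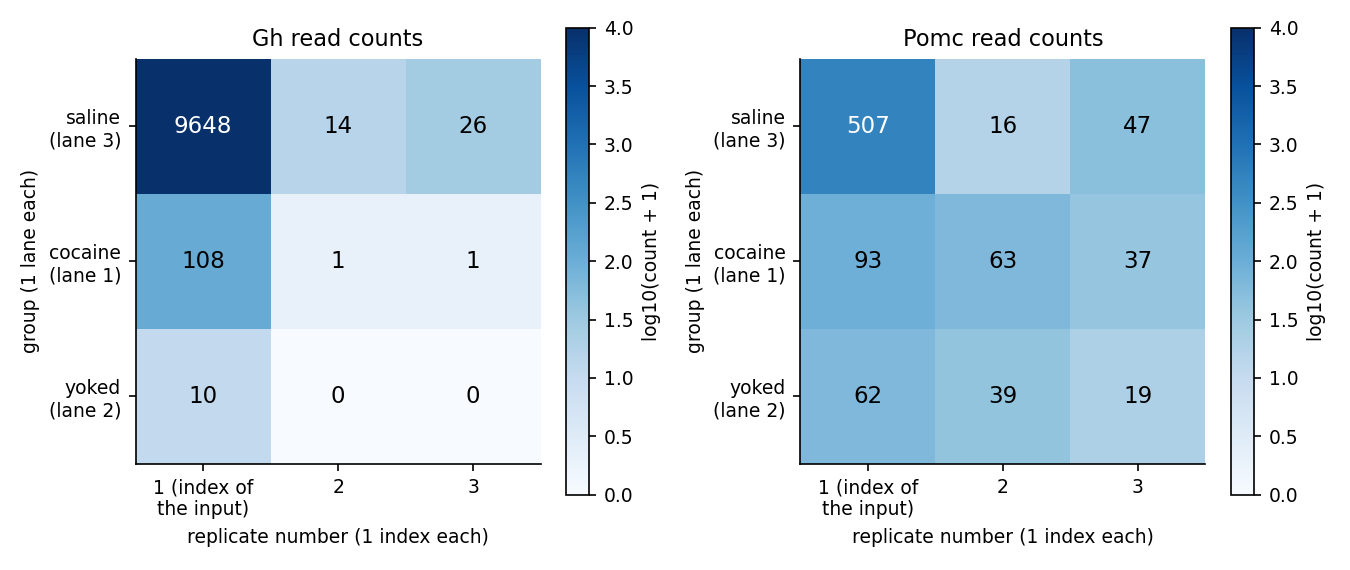
Read counts of Gh (left) and Pomc (right) in the 9 pull-downs, arranged by group, which is also the lane, and by replicate number, which is also the index; shade is log10(count + 1). Gh counts above 1 lie in the row and the column of saline 1, while Pomc is counted in all 9 libraries.

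The groups were compared to see whether the drug or its delivery went with these genes. Gh and Pomc passed the filter on low counts. Gh did not pass it over cocaine and yoked alone, so it passed here through the saline libraries. The genes were chosen with the level of saline 1 known. Comparisons with saline thus draw on the values that chose them and are given as a description. With group as the only term, neither Gh nor Pomc was called in any of the 3 comparisons by the quasi-likelihood test of edgeR (Benjamini-Hochberg). In each, 0% of the 14680 genes tested were called. An unadjusted p under 0.05 was reached by 417 genes between cocaine and saline, 379 between cocaine and yoked and 270 between yoked and saline. DESeq2, which gave Gh no p-value, called 1 gene, no hormone, between cocaine and saline and 0 in the others. Gh was called by edgeR when the replicate number was added as a block, a fit described below. The mean of Gh was 114 ± 195 CPM for saline, 1.12 ± 1.88 for cocaine and 0.0863 ± 0.150 for yoked (SD, n = 3 per group). Its log2 fold change was -6.60 ± 2.69 (SE) for cocaine against saline (edgeR adjusted p = 0.999) and -10.35 ± 3.48 for yoked against saline (edgeR adjusted p = 0.999). Without saline 1 these were -0.01 and -3.69. For cocaine against yoked it was 3.74 ± 4.07 (edgeR adjusted p = 0.974), and -1.24 without cocaine 1.

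The mean of Pomc was 7.04 ± 9.36 CPM for saline, 1.95 ± 0.841 for cocaine and 0.974 ± 0.597 for yoked (SD, n = 3 per group). Its log2 fold changes were -1.80 ± 0.90 for cocaine against saline, 1.03 ± 0.92 for cocaine against yoked and -2.83 ± 0.94 for yoked against saline (edgeR adjusted p = 0.999, 0.974 and 0.999). Without saline 1 the first was 0.25 and the third -0.77. In both comparisons with saline the direction or the size thus rested on saline 1.

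Levels of Prl, Cga, Lhb and Tshb were too low for the fit and were compared on the scale log2(CPM + 0.5) by a two-sided exact permutation test, which for 3 against 3 cannot go below p = 0.1. For Prl the difference was -1.91 for cocaine against saline and -1.94 for yoked against saline (exact permutation p = 0.4 in both). Cga differed by -1.34 and -1.43 (exact permutation p = 0.2 and 0.1). These differences rest on saline 1, whose level chose the genes. Without it they were -0.0855 and -0.114 for Prl and -0.178 and -0.259 for Cga. All 3 saline libraries were above all 3 yoked libraries for 2 of the 6 genes, Gh and Cga, against 4.42% of the 14680 genes tested, and the Cga counts there were 178, 2 and 1 against 0. All yoked libraries were above all saline libraries for 0 of the 6, against 2.48%. Between cocaine and saline, 0 of the 6 had all cocaine libraries above (3.76% of genes) or all below (7.31%). Between cocaine and yoked, Lhb had all cocaine libraries above (2.87% of genes) and Tshb all below (3.6%), both on at most 5 counts a library. As 4 of the 6 had not passed the filter behind these percentages, the shares are a loose guide. For Lhb and Tshb the largest of the 3 differences in size were -0.25 and -0.67, on counts near the floor.

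Across the 9 pull-downs, the genes whose log2(CPM + 0.5) ran most like that of Gh, among 12796 genes averaging 10 counts or more (predicted, unnamed and small RNA genes left out by symbol), were Cga (Pearson r = 0.965), Pomc (0.950), Prl (0.948), Spg7 (0.944) and Rbm20 (0.938). Prl and Cga averaged 10 counts only through saline 1, the library whose high counts chose the genes, so these values restate that choice. Spg7 rose over a narrow range, at 14.4 CPM in saline 1 and at most 10.6 elsewhere. With the input added, Prl was most like Sytl4 (r = 0.999), which binds secretory granules in endocrine cells, then Cga (0.995) and Tshb (0.990). Sytl4 had 26 counts in saline 1, 87 in the input and at most 1 elsewhere. These values too thus restate the libraries that chose the genes. Over the 8 pull-downs other than saline 1, the 5 genes most like Gh were Acot4 (r = 0.980), Slc26a2, Ccdc86, Slc25a37 and Parp8, none a hormone gene. The 5 most like Pomc there held no hormone gene either. Prl, Cga, Lhb and Tshb could not appear in these rankings. Their counts over the 8 libraries summed to 3, 6, 10 and 11, short of an average of 10. Of the 6 genes, only Gh and Pomc were compared there.

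**Figure D4:**
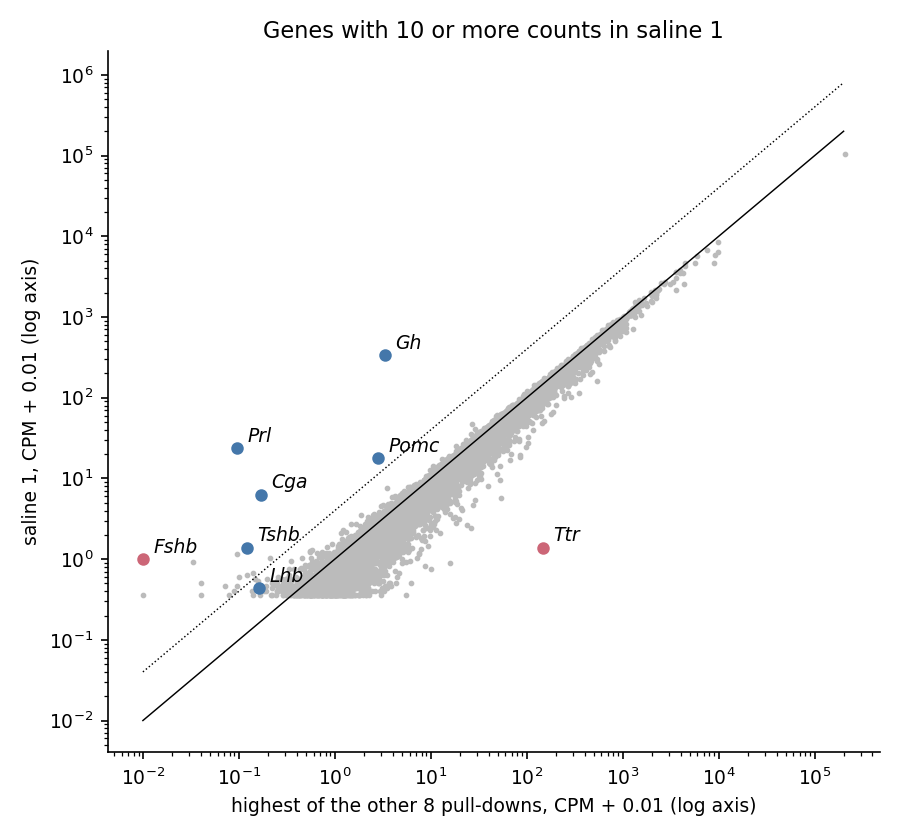
Each of the 14120 genes with at least 10 counts in saline 1, drawn at its CPM + 0.01 in saline 1 (y) and in the highest of the other 8 pull-downs (x), both on log axes. The solid line marks equality and the dotted line 4-fold; Gh, Prl, Pomc, Cga and Tshb (blue) lie above the dotted line, with Fshb (red), and Lhb below it, while Ttr (red) lies far below both.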

How the data were processed

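TRAP-seq libraries (9 pull-downs, 1 input) were analysed from the deposited read counts per gene symbol. Per the submitters' processing notes the authors used STAR 2.0.0e and HTSeq on mm10. Annotation, strand setting and counting mode: not given in the sources used here, so reads of overlapping genes on opposite strands cannot be told apart. The 6 rows naming no gene were left out. CPM were computed on the 32531 gene rows. Some genes are not reported here. The members and lists were chosen with earlier results of these data known.

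Groups were compared with edgeR 4.0.16 in R 4.3.3 (TMM, filterByExpr, robust quasi-likelihood fit on all 9 pull-downs, call at adjusted p under 0.05). Standard errors are the log2 fold change over the root of F. On simulated counts for cocaine against saline, 200 of 200 genes changed 4-fold were recovered among 14592 tested, with 5 false calls. The simulation gave every gene the same spread and changed only genes above a set level. It therefore does not show what the test can find in genes as uneven between replicates as Gh. Replicates differed by 14.4 to 157 times counting noise (chi-square per degree of freedom), so none was a duplicate. Named genes were the 6 members, fixed pituitary genes, up to 4 genes a list by input level and ratio, and the 5 most like a member. Alternatives were DESeq2 1.42.0, limma-voom (limma 3.58.1), other scalings, filters and pseudocounts, a replicate block and leaving out each library. Of 32531 symbols, 22961 matched RefSeq.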

Additional observations from a re-analysis of the deposited data

Results flagged for a closer look

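In 12 of 13 genes looked at, the 6 hormones and 7 genes that define pituitary cells, 1 of the 9 pull-downs lay apart from the rest, and it was saline 1 each time. A library was marked where its gap to the nearest other, divided by the whole range, was above 0.493 (Dixon's 95% value for 9), which chance passes in about 1 in 20 groups. Here it was passed by 26.6% of the 22379 gene rows with any spread and by 14.5% of the 14262 averaging 10 counts or more, with saline 1 as the high library in 1.99% and 0.294%. The 9 pull-downs span 3 groups, and the genes were chosen for being high in saline 1, so the count is a description. The highest value and the next were 340 and 3.28 CPM for Gh, 23.6 and 0.0855 for Prl, 17.8 and 2.83 for Pomc, 6.27 and 0.160 for Cga, 0.422 and 0.152 for Lhb and 1.37 and 0.111 for Tshb. For Pou1f1, Fshb and Lhx3 they were 0.317, 0.986 and 0.176 CPM, with 0 in the next. They were 0.317 and 0.0221 for Tbx19, 0.458 and 0.0855 for Gnrhr and 0.246 and 0.104 for Pitx1. Ghrhr was not marked, with 4 counts in saline 1.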

How the results depend on the processing

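With the replicate number as a block, 1 gene was called in each of the 3 comparisons, and it was Gh (log2 fold change -6.52, 3.66 and -10.18 for cocaine minus saline, cocaine minus yoked and yoked minus saline, edgeR Benjamini-Hochberg adjusted p = 1.85e-08, 0.00308 and 7.71e-10). The Gh comparisons with saline also draw on saline 1, the library whose level chose the genes. Same-numbered libraries correlated in their deviations at 0.128 to 0.246 in the 6 pairs numbered 2 or 3, but at -0.0168 to 0.0534 in the 3 pairs numbered 1, so the numbers were not taken to pair the libraries. In an alternative added once the data had been seen, which drops libraries numbered 1, the block called 0 genes and Gh had an adjusted p of 0.983, 0.786 and 0.998 (edgeR, Benjamini-Hochberg). In cocaine against saline, DESeq2 and the fit over the 2 groups each called 1 gene, the clone AK155692, not a hormone gene. DESeq2 gave Gh no p-value. Leaving out each library gave 0 to 1 called genes in cocaine against saline and in yoked against saline, where the 1 was the same clone and came without yoked 3. Gh did not pass the filter in the fit over cocaine and yoked alone. With each library left out in turn, the log2 fold changes of Gh in the 3 comparisons were -11.58 to -0.01, -1.24 to 8.13 and -14.73 to -3.69. For Pomc in cocaine against saline they were -2.27 to 0.25. Lhb then differed by -0.23 to 0.21 in cocaine against saline and -0.40 to 0.046 in yoked against saline, and Tshb by -0.81 to 0.14 in the latter. The log2 ratio of pull-downs to input ran from -10.90 to -5.75 for Gh and -8.41 to -5.66 for Prl when libraries were left out. With the median of the pull-downs it was -11.60 for Gh, -8.45 for Prl and -6.70 for Cga. With pseudocounts of 0.1 and 2 CPM it was -4.18 and -1.31 for Lhb and -4.26 and -1.75 for Tshb. The 6 ratios stayed below 0 under each alternative run. The cause of these shifts was not tested. At 3 counts a library, Prl, Cga, Lhb and Tshb could not be told from 0 in most pull-downs.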

Other observations

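Saline 1 held 16 genes with at least 10 counts that were at least 4-fold above each other pull-down. Beside 5 of the 6 hormone genes they included Fshb, Gnrhr, Sytl4, Cyp2f2, Spp1, Lrrc52, Ephx3, Mnd1, Chmp4c and Renbp, named after their values were seen. Of the 16, 11 were also at least 4-fold higher in the input than in the other 8 pull-downs, and the same held for 33 of 42 such genes of yoked 2. Sytl4, which binds secretory granules, had 26 counts in saline 1, 87 in the input and at most 1 elsewhere. Cyp2f2, a cytochrome P450 gene, had 33, 212 and at most 3 counts. Lrrc52 and Ephx3 had 3 counts each in the input against 18 and 17 in saline 1.

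Such lists were 9 to 42 genes long in the other 8 pull-downs, with 0 hormone genes among them. Saline 3 was high in Ttr, the transthyretin gene of the choroid plexus, at 147 CPM (3443 counts), against 1.37 CPM in saline 1 and 7.77 in the input.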
